A study of Caenorhabditis elegans with 14 samples.

Results

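The genes described here are 30 genes of 5 gene families known from sperm of Caenorhabditis elegans. They comprise 10 nspd genes, 12 ssp genes, 4 ssq genes, the 2 smz genes, and gsp-3 and gsp-4, out of 20535 protein-coding genes in the deposited tables. They were chosen by name: nspd-, ssp-, ssq- or smz- at the start of the gene name, or gsp-3 or gsp-4. The protein-coding entries of the tables carry a WormBase gene identifier and no name, so the names came from the WBcel235 annotation, in which all 30 genes had an entry. That annotation gives the name ssp-9 to a pair of genes, and one of them is called ssp-11 here, its RefSeq symbol. Reads of all transcripts of a gene were summed, and reads on the gene's own strand (sense) were kept apart from reads on the opposite strand (antisense).

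RNA of 17 to 30 nucleotides was sequenced from whole worms collected at the late young adult stage and grown at 20 °C on OP50 bacteria. For 8 libraries the RNA was dephosphorylated and then treated with TDP2 (Tobacco Decapping plus 2), an enzyme that removes 5′ caps: 1 library each of tofu-6(it20), tofu-6(ust94), tofu-6(ust95), tofu-6(yt2), pics-1(tm2417), erh-2(ust101), prg-1(n4503) and control (N2). The other 6 libraries were untreated and came from tofu-6(ust94), pics-1(tm2417), erh-2(ust101), prg-1(n4503), tost-1(ust103) and control (N2). The labels name no other allele, and they do not say whether mutant animals came from balanced parents. TOFU-6, PICS-1, ERH-2 and TOST-1 belong to the PICS complex named in the series title, and PRG-1 is the Piwi protein that binds piRNAs. Each library held 6918136 to 13469619 assigned reads, and the 30 genes took few of them, between 10 and 2311 sense reads and between 5 and 432 antisense reads per library. All values are given as reads or as RPM, reads scaled to 1000000 assigned reads per library, intervals are exact 95% counting intervals that cover counting error only, and no genotype other than tofu-6 had more than 1 library of a kind. The labels name no separate cultures, so p-values measure only the spread between these libraries, which may in part be technical. In the tests of mutants with TDP2 that spread comes from the tofu-6 alleles, so it also includes differences between alleles. Small RNA reads do not measure the mRNAs of the mutated genes, so the alleles were not checked by them. Mature piRNAs, which PRG-1 binds, had 241 sense reads in the prg-1 untreated library, against 12708 to 41293 in the other 5 untreated libraries. With TDP2 the prg-1 library had 2250, against 2322 in pics-1 and 3545 to 15916 in the other 6, so there this count does not set it apart.

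Hermaphrodites of this nematode make their sperm before adulthood and then turn to oocytes, so an adult carries stored sperm and the remains of the transcripts that built it. GSP-3 and GSP-4 are sperm-specific type 1 protein phosphatases that act in meiotic chromosome segregation of sperm and in sperm motility. The ssp genes (sperm-specific family, class P) encode small proteins with a major sperm protein domain, the ssq genes are the sperm-specific family, class Q, the smz genes encode PDZ-domain proteins of sperm meiosis, and the nspd genes are a nematode-specific peptide family. Many transcripts of spermatogenesis are templates for 26G-RNAs, antisense small RNAs bound by the Argonautes ALG-3 and ALG-4. The 26G-RNAs carry a 5′ monophosphate, whereas the secondary 22G-RNAs made from many germline transcripts carry a 5′ triphosphate. Read lengths are not given in the tables used here, so antisense reads were not split by class of small RNA.

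The genes sit close together in places. In the WBcel235 annotation 15 of the 30 are on chromosome IV and 10 on chromosome I, and 15 lie in 6 clusters in which neighbouring members are within 20000 bp. Of these 6 clusters, 4 hold genes of more than 1 family. The largest by number spans chromosome IV from 4994371 to 5017766 and holds ssp-9, ssq-2, ssp-11 and ssq-4. A second on chromosome IV, from 9844060 to 9853609, holds nspd-2, ssp-10 and ssq-1. On chromosome I, nspd-1 and ssp-16 lie between 6097579 and 6102396. The nspd genes are short, with 213 to 222 bp of annotated exon, ssp genes have 324 to 451 bp, and the ssq, smz and gsp genes have 963 to 1316 bp. One gene, ssq-4, overlaps a protein-coding gene on the opposite strand, T28H11.7, so reads opposite one may be reads of the other. Copies within a family are alike, and how reads with several matches were counted is not given in the sources used here, so the split of reads between single members is uncertain.

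In the TDP2 libraries, the summed small RNAs of the 30 genes were low in 3 of the 4 tofu-6 alleles and in the pics-1 and erh-2 mutants, on both strands. The sums were above the control level in tofu-6(ust95) and in prg-1, although the smz sense reads of tofu-6(ust95) were 0.413 times those of control (0.326 to 0.521). The 30 genes summed to 15.7 sense RPM in tofu-6(it20), 16.7 in tofu-6(ust94), 125.1 in tofu-6(ust95), 10.7 in tofu-6(yt2), 5.64 in erh-2, 7.32 in pics-1 and 266.5 in prg-1, against 99.7 in control. Antisense, they summed to 5.69 RPM in tofu-6(it20), 2.41 in tofu-6(ust94), 38.0 in tofu-6(ust95), 4.78 in tofu-6(yt2), 0.891 in erh-2, 4.79 in pics-1 and 40.3 in prg-1, against 27.4 in control. Both strands thus had the same 3 highest libraries, prg-1, tofu-6(ust95) and control, and the same 5 low ones. In such bulk samples, fewer sperm or spermatogenic cells and less RNA per cell cannot be told apart.

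**Figure D1:**
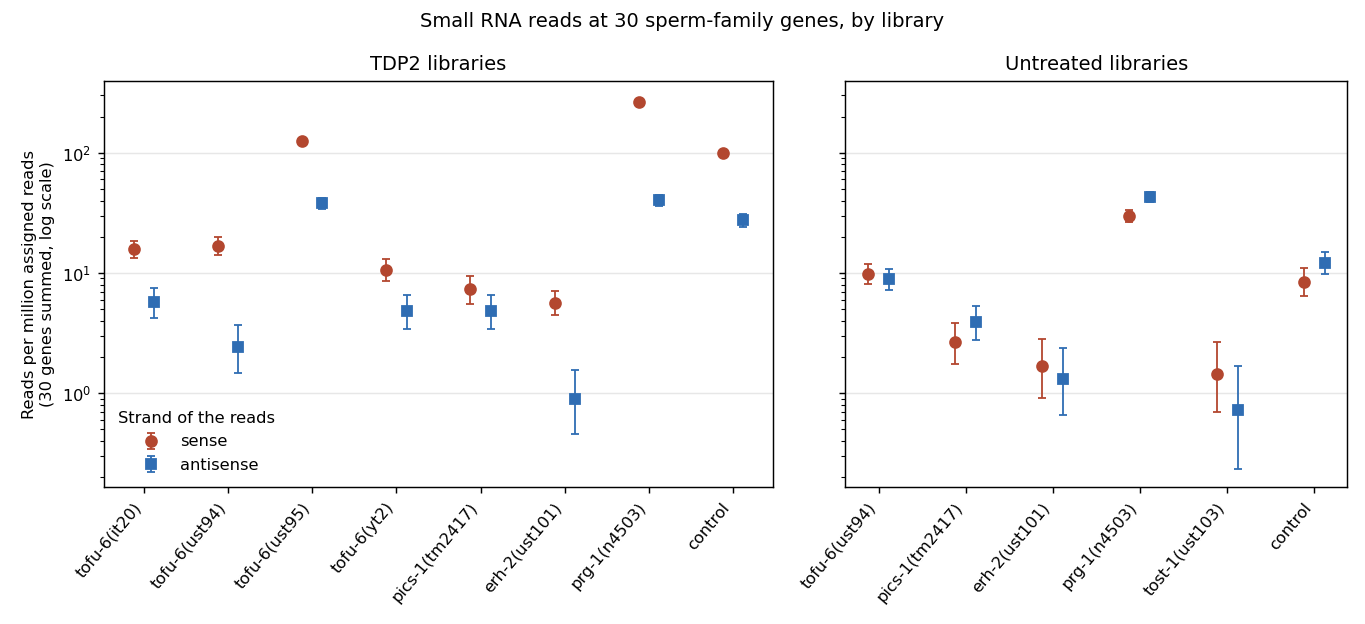
Summed level of the 30 genes in each library, in RPM on a log scale, for sense reads (circles) and antisense reads (squares), with exact 95% counting intervals. Among TDP2 libraries (left) tofu-6(ust95), prg-1 and control stand at 99.7 to 266.5 sense RPM and the other 5 at 5.64 to 16.7, and among untreated libraries (right) prg-1 is highest on both strands.

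Against the TDP2 control library, which all these ratios share, the sense sum was 0.158 times as large in tofu-6(it20) (95% interval 0.131 to 0.189), 0.168 times in tofu-6(ust94), 0.107 times in tofu-6(yt2), 0.0566 times in erh-2 (0.0442 to 0.0716) and 0.0734 times in pics-1. It was 1.26 times as large in tofu-6(ust95) (1.15 to 1.37) and 2.67 times in prg-1 (2.48 to 2.89). The antisense ratios were 0.208 for tofu-6(it20), 0.0879 for tofu-6(ust94), 1.39 for tofu-6(ust95), 0.175 for tofu-6(yt2), 0.175 for pics-1, 0.0325 for erh-2 and 1.47 for prg-1. The size of these ratios rests on what the reads are scaled to. MicroRNAs took 0.810% of the assigned reads in erh-2 TDP2, 1.51% in prg-1 TDP2 and 1.63% to 4.10% in the tofu-6 alleles and 3.75% in pics-1, against 8.35% in control TDP2. Per microRNA read the sense ratio was 0.584 in erh-2, 0.805 in tofu-6(it20), 0.680 in tofu-6(ust94), 0.296 in tofu-6(yt2) and 0.163 in pics-1, all still below 1, and it was 2.56 in tofu-6(ust95) and 14.8 in prg-1. Per microRNA read the antisense ratio of tofu-6(it20) came to 1.06, above the control.

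Most single genes had the direction of the sum. In erh-2 TDP2, 27 of the 30 genes had lower sense RPM than control, 1 was higher and 2 had no read in either library. Among protein-coding sense features with 10 reads in the pair, 31.1% were lower in erh-2, whereas the 30 genes were counted at any depth. The counts of lower genes were 28 of 30 in tofu-6(it20), 27 in tofu-6(ust94), 27 in tofu-6(yt2) and 27 in pics-1, where the matching shares of coding features were 25.6%, 22.5%, 32.3% and 37.2%. In tofu-6(ust95) 19 of 30 genes were higher than control and 9 lower, with 20.3% of coding features lower. In prg-1 24 were higher and 4 lower, with 64.6% of coding features lower. Antisense, 27 of 30 genes were lower in erh-2, but so were 89.7% of coding antisense features. The 24 lower genes in tofu-6(it20) stood beside a share of 82.8% and the 25 in tofu-6(ust94) beside 94.6%, so these counts are near the background. In tofu-6(ust95) 21 of 30 genes were higher antisense and 7 lower, with 64.3% of coding features lower. In pics-1 and tofu-6(yt2), where 32.0% and 36.1% of coding antisense features were lower, 25 and 24 of the 30 genes were. In prg-1 23 of the 30 genes had higher antisense RPM than control, whereas 85.7% of coding antisense features were lower there.

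**Figure D2:**
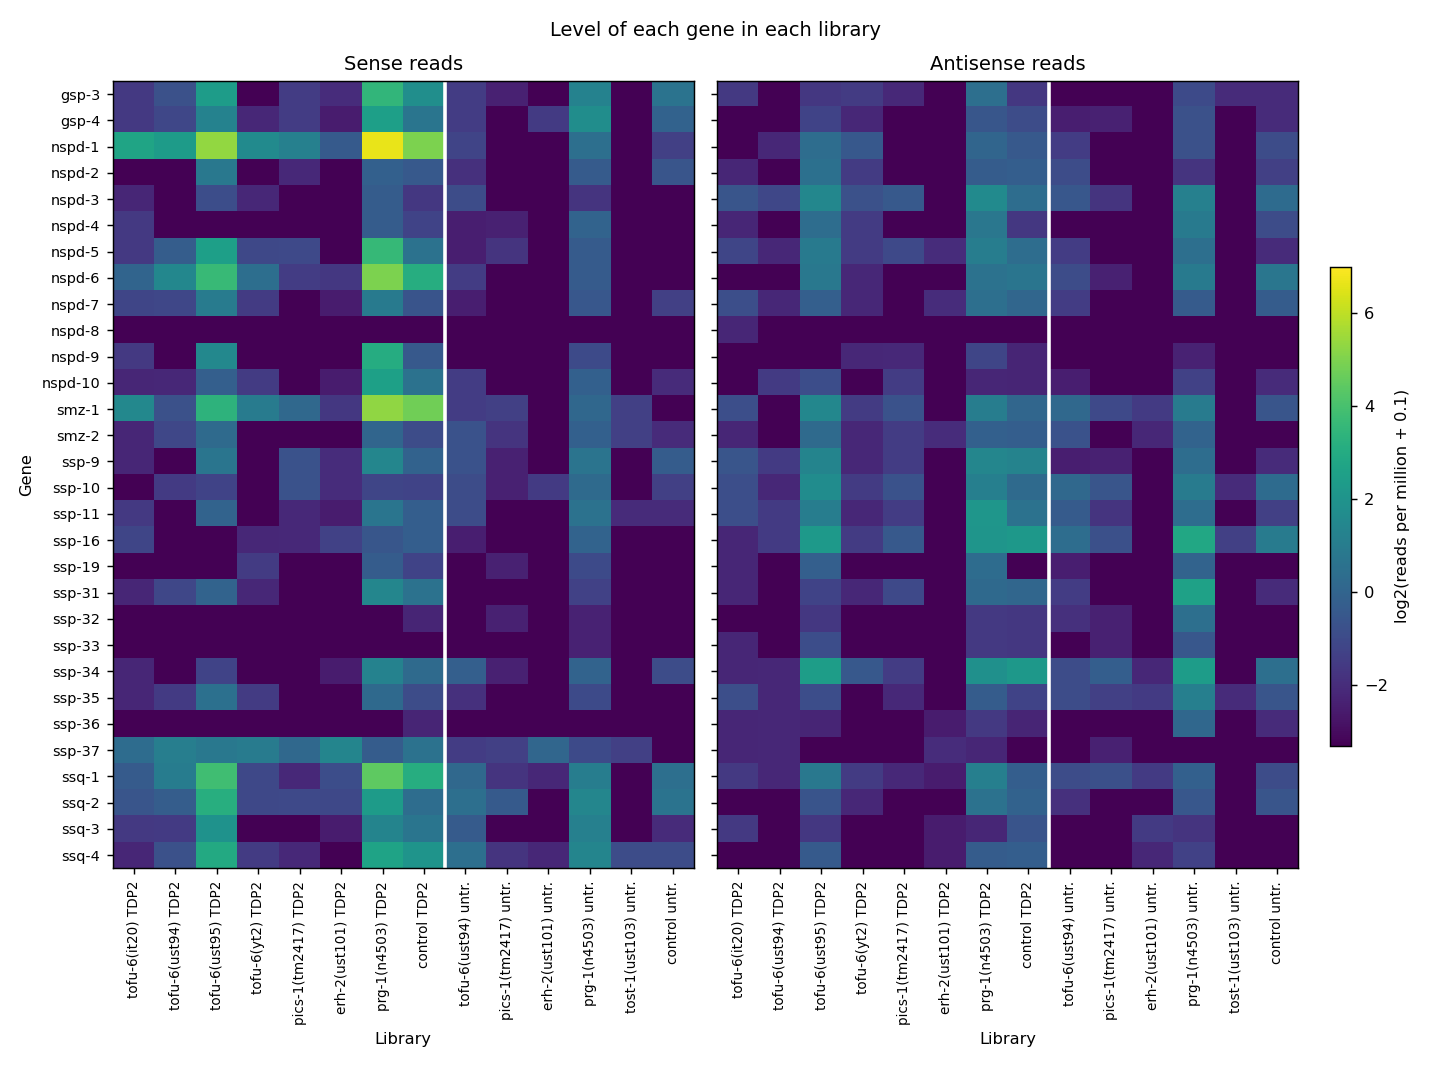
Level of each of the 30 genes (rows) in each of the 14 libraries (columns, TDP2 left of the white line and untreated, marked untr., right of it), as log2 of RPM plus 0.1, with sense reads in the left panel and antisense reads in the right one. The brightest sense rows are nspd-1, smz-1, nspd-6 and ssq-1 in prg-1, tofu-6(ust95) and control after TDP2, ssp-37 stays at like levels across the TDP2 columns, and nspd-8 is empty but for 1 antisense read.

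The nspd family supplied the largest part of the sense reads in 7 of the 8 TDP2 libraries, with 1409 of 2311 in prg-1 and 416 of 928 in control. The exception was erh-2, with 14 of 76, where the ssp genes had 44. Its most read member, nspd-1 (WBGene00022754, chromosome I from 6097579 to 6097791, minus strand), had 57, 41, 369 and 24 sense reads in the it20, ust94, ust95 and yt2 alleles of tofu-6, 9 in erh-2, 17 in pics-1 and 878 in prg-1, against 289 in control. This is 6.49, 4.94, 40.2 and 2.94 RPM in the tofu-6 alleles, 0.668 in erh-2, 2.14 in pics-1 and 101.3 in prg-1, against 31.04 in control. The tofu-6 alleles therefore stood on both sides of control, with ust95 above it and the other 3 below. The fitted log2 fold changes of nspd-1 (± SE) were −1.27 ± 0.86 in tofu-6, with an edgeR adjusted p of 0.795, −4.20 ± 1.36 in pics-1, with 0.298, −5.08 ± 1.43 in erh-2, with 0.104, and 2.14 ± 1.22 in prg-1, with 0.549. DESeq2 gave nspd-1 an adjusted p of 0.0489 in erh-2.

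The next most read nspd members were also highest in prg-1, tofu-6(ust95) and control. For nspd-6 the counts were 8, 22, 114 and 10 sense reads in the it20, ust94, ust95 and yt2 alleles of tofu-6, 3 in erh-2, 2 in pics-1 and 272 in prg-1, against 79 in control. The corresponding counts of nspd-5 were 2, 6, 51 and 3 in the tofu-6 alleles, 0 in erh-2, 3 in pics-1 and 103 in prg-1, against 13 in control. Sense reads of nspd-9 came mostly from tofu-6(ust95) with 25 and prg-1 with 72, against 6 in control. In prg-1, nspd-9 and nspd-5 had log2 fold changes of 4.10 ± 1.57 and 3.51 ± 1.39, with adjusted p-values of 0.127 and 0.149 by edgeR. For nspd-10 all 4 tofu-6 alleles were below control, with 1, 1, 7 and 2 sense reads in it20, ust94, ust95 and yt2, against 13 in control. At the other end nspd-8 had no sense read and 1 antisense read in all 14 libraries.

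The smz pair is unequal: smz-1 (WBGene00007733, chromosome IV from 12455050 to 12456299) carried nearly all of its sense reads. After TDP2 smz-1 had 24, 4, 94 and 15 sense reads in the it20, ust94, ust95 and yt2 alleles of tofu-6, 3 in erh-2, 8 in pics-1 and 340 in prg-1, against 251 in control. In RPM this is 2.73, 0.482, 10.2 and 1.84 in the tofu-6 alleles, 0.223 in erh-2, 1.01 in pics-1 and 39.2 in prg-1, against 27.0 in control. All 4 tofu-6 alleles, pics-1 and erh-2 were below control, and prg-1 was above. In erh-2, smz-1 sense reads fell by 6.42 ± 1.57 on the log2 scale, with an adjusted p of 0.0366 by edgeR's quasi-likelihood test. This was the one call among the 30 genes in the 4 comparisons of a mutant with control, and among coding sense features 0.121% were called lower in erh-2. The call ended with DESeq2's size factors (adjusted p 0.493), with scaling to microRNA reads (0.1004), with no filter on low counts (0.0502) and without tofu-6(it20) (0.540) or tofu-6(ust95) (0.234), and DESeq2 gave no adjusted p. In tofu-6 the log2 fold change of smz-1 was −2.92 ± 0.82, with an adjusted p of 0.0886, and all 4 alleles were lower than control.

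**Figure D3:**
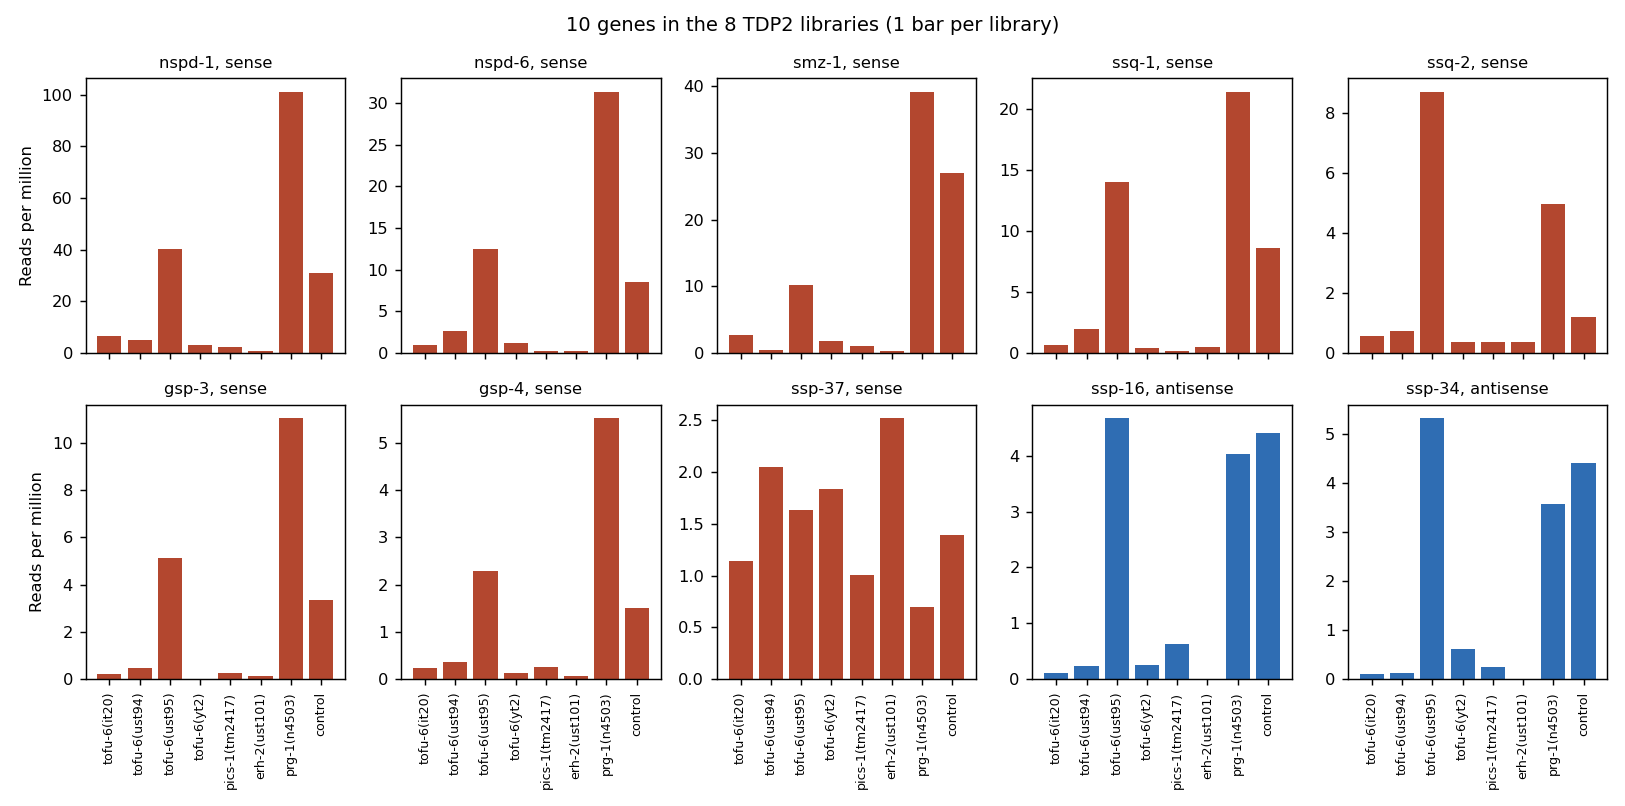
Level (RPM) of 10 genes in the 8 TDP2 libraries, 1 bar per library, sense reads in red and antisense reads in blue, each panel with its own linear axis from 0. In 9 of the 10 panels the bars of tofu-6(ust95), prg-1 and control stand above those of the other 5 libraries, and ssp-37 is the exception, with erh-2 highest at 2.52 RPM.

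Among the ssq genes, ssq-1 (chromosome IV from 9852550 to 9853609) had 6, 16, 129 and 3 sense reads in the it20, ust94, ust95 and yt2 alleles of tofu-6, 6 in erh-2, 1 in pics-1 and 186 in prg-1, against 80 in control. For ssq-2 the counts were 5, 6, 80 and 3 in the tofu-6 alleles, 5 in erh-2, 3 in pics-1 and 43 in prg-1, against 11 in control. In ssq-2 the highest library was therefore tofu-6(ust95), with 8.71 RPM, not prg-1, with 4.96 RPM. The same holds for ssq-4, with 69 sense reads in tofu-6(ust95) and 54 in prg-1, against 37 in control. The fitted log2 fold change of ssq-1 was −1.09 ± 0.88 in tofu-6, with an adjusted p of 0.795, −6.26 ± 1.68 in pics-1, with 0.110, and −3.81 ± 1.39 in erh-2, with 0.279.

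The phosphatase genes had fewer reads and the same 3 highest libraries. After TDP2 gsp-3 (chromosome I from 4709259 to 4710712) had 2, 4, 47 and 0 sense reads in the it20, ust94, ust95 and yt2 alleles of tofu-6, 2 in erh-2, 2 in pics-1 and 96 in prg-1, against 31 in control. Its neighbour in function, gsp-4 (chromosome I from 3838237 to 3839673), had 2, 3, 21 and 1 in the tofu-6 alleles, 1 in erh-2, 2 in pics-1 and 48 in prg-1, against 14 in control. In prg-1 the log2 fold changes were 2.17 ± 1.30 for gsp-3 and 2.31 ± 1.48 for gsp-4, with adjusted p-values of 0.620 and 0.713 by edgeR. Antisense reads of the pair were rare, at most 16 per library after TDP2 and at most 9 untreated.

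In control TDP2 the ssp family differed from the others in the strand of its reads. There the ssp genes had 144 antisense and 70 sense reads, where the nspd genes had 62 and 416. This did not hold in every library, since the antisense share of the ssp genes after TDP2 was 55.8%, 31.4%, 74.3% and 36.4% in the it20, ust94, ust95 and yt2 alleles of tofu-6, 6.38% in erh-2, 51.35% in pics-1 and 62.1% in prg-1, against 67.3% in control. The most read antisense member, ssp-16 (chromosome I from 6102067 to 6102396, plus strand), had 1, 2, 43 and 2 antisense reads in the it20, ust94, ust95 and yt2 alleles of tofu-6, 0 in erh-2, 5 in pics-1 and 35 in prg-1, against 41 in control. Antisense reads of ssp-34 numbered 1, 1, 49 and 5 in the tofu-6 alleles, 0 in erh-2, 2 in pics-1 and 31 in prg-1, against 41 in control. Both genes thus separated the same 3 libraries from the other 5, and their log2 fold changes were not called in any genotype. In erh-2, where both were at 0, the edgeR adjusted p-values were 0.119 for ssp-16 and 0.119 for ssp-34. Sense reads of ssp-37 did not follow the families: there were 10, 17, 15 and 15 in the tofu-6 alleles, 34 in erh-2, 8 in pics-1 and 6 in prg-1, against 13 in control. It supplied 44.7% of all sense reads of the 30 genes in erh-2 TDP2.

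The 4 tofu-6 alleles did not behave as replicates for these genes. Their sense sum averaged 42.1 ± 55.4 RPM and their antisense sum 12.7 ± 16.9 RPM (SD, n = 4), and ust95 was 7.47 and 6.68 times the next allele. Over all 30 genes, at any depth, ust95 was the highest allele in 22 on the sense strand and 23 on the antisense strand. Among tested coding features ust95 was highest in 26.1% sense and 22.2% antisense. Some of the 30 genes pass the read minimum of the tests only through ust95, so no count over the tested genes is given for this. Of all 30 genes, at any depth, 9 were lower than control in all 4 alleles on the sense strand and 6 on the antisense strand. Those that passed the read minimum were ssp-31, smz-1, ssp-34 and nspd-10 of 19 tested sense, and nspd-7 of 14 tested antisense. Among tested coding features 7.99% sense and 26.2% antisense were lower in all 4. The counts at any depth are not read against these shares, since they include ssp-36, with only 1 sense read in the 14 libraries, and ssp-32, with only 3. None of the 30 genes was above control in all 4, where 54.2% of tested coding sense and 4.54% of tested coding antisense features were.

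In the formal tests few members were called, with a spread taken from the tofu-6 alleles alone. Of the 30 genes, 19 passed the filter on the sense strand and 14 on the antisense strand, often through the high libraries. By edgeR no member was called in tofu-6, where 2 sense members and no antisense one had an unadjusted p under 0.05. Among coding features 0.0744% were called lower and 0.0% higher sense, and 0.127% lower and 0.162% higher antisense. None was called in pics-1 either, with 11 sense and 4 antisense members under 0.05 unadjusted; there 0.0372% of coding sense features were called lower and 0.0% higher, and 0.0116% of antisense ones in each direction. In erh-2 the call was smz-1, and 10 sense and 8 antisense members were under 0.05 unadjusted. Of coding features in erh-2, 0.121% were called lower and 0.0651% higher sense, and 0.0231% lower and 0.0% higher antisense. In prg-1 no member was called and 2 sense members were under 0.05 unadjusted, beside 0.0558% of coding sense features called higher and 0.493% lower, and 0.0809% of antisense ones higher and 12.1% lower. DESeq2 called no member in tofu-6, pics-1 or prg-1 and 1, nspd-1, in erh-2.

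In the untreated libraries counts were smaller, and tofu-6(ust94) stood near control in RPM but not per microRNA read. The 30 genes summed to 9.85 sense RPM in tofu-6(ust94), 1.67 in erh-2, 2.65 in pics-1, 30.0 in prg-1 and 1.45 in tost-1, against 8.49 in control. Antisense sums were 8.83 RPM in tofu-6(ust94), 1.32 in erh-2, 3.88 in pics-1, 42.6 in prg-1 and 0.723 in tost-1, against 12.2 in control. The sense ratio to control was 1.16 (0.843 to 1.61) in tofu-6(ust94), an interval that includes 1, 0.197 (0.102 to 0.357) in erh-2, 0.313 (0.192 to 0.497) in pics-1, 3.54 (2.68 to 4.75) in prg-1 and 0.170 (0.0778 to 0.335) in tost-1. Antisense ratios were 0.726 (0.540 to 0.978) in tofu-6(ust94), 0.108 in erh-2, 0.319 in pics-1, 3.50 (2.77 to 4.46) in prg-1 and 0.0594 (0.0188 to 0.144) in tost-1. Per microRNA read the ratios of tofu-6(ust94) were 0.345 sense, which turns its direction, and 0.216 antisense; microRNAs took 13.5% of its reads, against 4.01% in control. With 1 library against 1 these comparisons have no test.

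The tost-1 and erh-2 untreated libraries were nearly empty for these families, with 25 of 30 genes at 0 sense reads in each. All 10 nspd genes had no read on either strand in either library, which allows a summed count of up to 3 reads in each. Of the 30 genes, 12 were lower in tost-1 than in control on the sense strand and 20 on the antisense strand, where 24.7% and 37.4% of coding features were lower. In erh-2 the counts were 15 and 21, beside 23.0% and 31.6%, and in pics-1 14 and 20, beside 16.4% and 23.0%. In tofu-6(ust94) 7 genes were lower and 16 higher sense, and 15 lower and 9 higher antisense, beside shares lower of 16.4% and 14.9%. In these 4 pairs only 2 to 6 of the genes had 10 sense reads, the minimum for the coding features. In prg-1, by contrast, 28 of 30 genes had higher sense RPM than control and none lower, beside 68.7% of coding sense features that were lower. Antisense, 26 were higher and 2 lower in prg-1, with 25.5% of coding antisense features lower. The antisense reads of prg-1 came mainly from ssp genes, 287 of 432, among them ssp-16 with 73 reads against 13 in control, ssp-31 with 60 against 1 and ssp-34 with 52 against 9. For ssp-31 the same comparison after TDP2 gave 9 reads in prg-1 and 9 in control.

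The major sperm protein (msp) genes, which encode the main cytoskeletal protein of nematode sperm, had a like order of libraries. The 31 msp genes summed to 7.05, 13.1, 116.3 and 7.24 sense RPM in the it20, ust94, ust95 and yt2 alleles of tofu-6 after TDP2, 1.41 in erh-2, 4.16 in pics-1 and 196.0 in prg-1, against 95.4 in control. Untreated, they summed to 8.32 RPM in tofu-6(ust94), 0.957 in erh-2, 2.75 in pics-1, 54.9 in prg-1 and 1.74 in tost-1, against 22.5 in control. By edgeR 3 of 22 tested msp genes were called lower in erh-2 on the sense strand, with 20 under 0.05 unadjusted, and none in the other 3 genotypes. Of 10757 coding sense features, 0.121% were called lower in erh-2 and 970 were under 0.05 unadjusted.

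In its summed sense reads, a list of 42 other spermatogenesis genes did not show this order. It includes regulators such as fog-1, which promotes the sperm fate, and spe-44, a transcription factor of spermatogenesis, and genes that sperm need, such as fer-1. These summed to 25.4 to 60.0 sense RPM in the tofu-6 alleles after TDP2, 32.7 in erh-2, 23.0 in pics-1 and 59.6 in prg-1, against 28.8 in control, and none was called in a mutant on either strand. Its most read sense genes were spe-39, spe-48, fog-1 and spe-44, which weigh on the sum: in erh-2 they had 169, 76, 40 and 42 of 441 reads. Genes of the list with no sense read after TDP2 were fewest in tofu-6(ust95) with 4, prg-1 with 7 and control with 11. They numbered 17, 14 and 19 in it20, ust94 and yt2, 15 in erh-2 and 20 in pics-1. By that count, unlike by the sum, the list did set the same libraries apart. For spe-39 there were 91, 129, 102 and 87 sense reads in the it20, ust94, ust95 and yt2 alleles of tofu-6, 169 in erh-2, 85 in pics-1 and 40 in prg-1, against 49 in control. The most read antisense genes, spe-47, spe-41, fer-1 and spe-39, differed among themselves: spe-47 had 729 antisense reads in tofu-6(yt2) against 117 in control, and fer-1 had 6 against 105.

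Markers of other cell types differed between the same libraries. All 12 oocyte genes had sense reads in every library, and their sum after TDP2 was 1324, 1422, 814.7 and 1445 RPM in the it20, ust94, ust95 and yt2 alleles of tofu-6, 1500 in erh-2, 1203 in pics-1 and 606.8 in prg-1, against 779.9 in control. The 5 TDP2 libraries low in the sperm families were thus the 5 highest TDP2 libraries for oocyte genes. Untreated, the oocyte sums were 1388 RPM in tofu-6(ust94), 1343 in erh-2, 1474 in pics-1, 557.7 in prg-1 and 1334 in tost-1, against 710.1 in control. There tofu-6(ust94) was high for oocyte genes while its sense sum of the sperm families, 9.85 RPM, was not below that of control, 8.49 RPM. Its antisense sum was below control, 8.83 against 12.2 RPM, as was its msp sense sum, 8.32 against 22.5 RPM. Per microRNA read its sense ratio to control was 0.345. The 12 germline genes ran from 397.2 to 601.8 sense RPM in the tofu-6 alleles, 539.5 in erh-2, 386.0 in pics-1 and 221.3 in prg-1, against 246.0 in control. For the 12 somatic genes the sums were 3672 to 7660 RPM in the tofu-6 alleles, 5625 in erh-2, 5992 in pics-1 and 3747 in prg-1, against 4830 in control. The part of these differences in the levels of the sperm families was not tested.

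In TDP2 RNA the summed sense reads of the 30 genes were more abundant than in untreated RNA, whereas for coding genes at large it was mainly the antisense reads. In control, TDP2 RNA held 11.8 times (9.04 to 15.5) as many sense RPM of the 30 genes as untreated RNA, 99.7 against 8.49, and 2.25 times as many antisense RPM. The sense ratio was 1.70 in tofu-6(ust94), 3.37 in erh-2, 2.76 in pics-1 and 8.87 in prg-1. By family, sense RPM was lower with TDP2 for ssq in pics-1 (ratio 0.605) and tofu-6(ust94) (0.794) and for gsp in erh-2 (0.931). In all other cases of family and strain it was higher, but the lower ratios and several of the higher ones had intervals that include 1. In tofu-6(ust94), smz had 7 reads with TDP2 and 9 untreated (ratio 1.10, 0.349 to 3.33) and ssp 24 and 31 (1.10, 0.617 to 1.93). In erh-2, smz had 3 and 0, and in pics-1 gsp had 4 and 1. Antisense the ratio was 0.273 in tofu-6(ust94), 0.677 in erh-2, 1.23 in pics-1 and 0.946 in prg-1. For all protein-coding genes together the antisense ratio of TDP2 to untreated was 6.56 in tofu-6(ust94), 16.6 in erh-2, 47.6 in pics-1, 12.6 in prg-1 and 45.4 in control. Their sense ratio was 1.218 in tofu-6(ust94), 1.175 in erh-2, 0.863 in pics-1, 1.251 in prg-1 and 1.324 in control.

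Across the 5 strains with both kinds of library, and with strain as a block, edgeR called 8 of 19 tested members higher with TDP2 on the sense strand and none lower, where 10.2% of coding sense features were called higher and 14.4% lower. These were nspd-1, at a log2 fold change of 5.30 ± 0.56 (adjusted p 0.000112), nspd-6 at 4.63 ± 0.70 (0.000341), smz-1 at 3.92 ± 0.99 (0.00614), nspd-9 at 3.73 ± 1.05 (0.0162), ssp-31 at 3.23 ± 1.04 (0.0259), nspd-5 at 2.87 ± 0.80 (0.0118), ssp-37 at 1.63 ± 0.64 (0.0481) and ssq-1 at 1.63 ± 0.58 (0.0336). Of the 8, nspd-6, nspd-9, ssp-31, nspd-5 and ssp-37 reached the minimum of 10 reads in TDP2 libraries alone, so the filter favoured the direction called and the count of 8 is not read against the background. The median sense log2 fold change was 1.15 over the 19 tested members and −0.318 over coding sense features. With no filter these medians were 0.467 over 29 members and −0.0481. Among the called genes nspd-1, nspd-6, smz-1 and ssp-37 were higher in 5 of 5 strains, and nspd-9 in only 2 of 5. The reads show the contrast directly: nspd-1 had 41 sense reads with TDP2 and 4 untreated in tofu-6(ust94), 17 and 0 in pics-1, 9 and 0 in erh-2, 878 and 13 in prg-1, and 289 and 2 in control. For smz-1 the counts in control were 251 with TDP2 and 0 untreated. Neither gsp gene was called, with log2 fold changes of 1.15 ± 0.55 for gsp-3 (0.0967) and 0.20 ± 0.61 for gsp-4 (0.807). Without strain as a block 3 sense members were called, and without the prg-1 pair 3.

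Antisense, none of the 15 tested members was called higher with TDP2, where 90.6% of coding antisense features were. One, ssp-35, was called lower at −1.99 ± 0.68 (adjusted p 0.0274), in 5 of 5 strains, where 0.59% of coding antisense features were lower. The fold changes of the other 14 ran down from 1.36 ± 0.75 for ssp-9 to −1.25 ± 0.77 for nspd-6. The median over the 15 was −0.74, against 3.88 over coding antisense features. The filter was not neutral here, since ssp-31 passed it only through untreated prg-1, with 60 antisense reads. The highest count of ssp-35 was also in untreated prg-1, with 21 antisense reads. Over all libraries of a preparation ssp-35 had 36 antisense reads untreated and 19 with TDP2. The filter thus favoured the direction in which ssp-35 was called, and that call is not read against the background. With no filter the medians were −0.13 over 29 members and 2.70 over coding antisense features. Scaled to microRNA reads, which moved the median of all features by 2.23 on the log2 scale, 2 of the 15 were called higher and the adjusted p of ssp-35 was 0.820. The call of ssp-35 was also lost with scaling to reads outside structural classes (0.244), with no filter (0.0714), with no strain block (0.129) and without the erh-2 (0.0550), pics-1 (0.0551) or tofu-6 (0.0534) pair. With a minimum of 100 reads, or without the prg-1 pair, ssp-35 was not tested. By comparison, 7 of 16 tested genes of the other spermatogenesis list and 1 of 11 msp genes were called higher antisense, as were 12 of 12 germline genes.

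**Figure D4:**
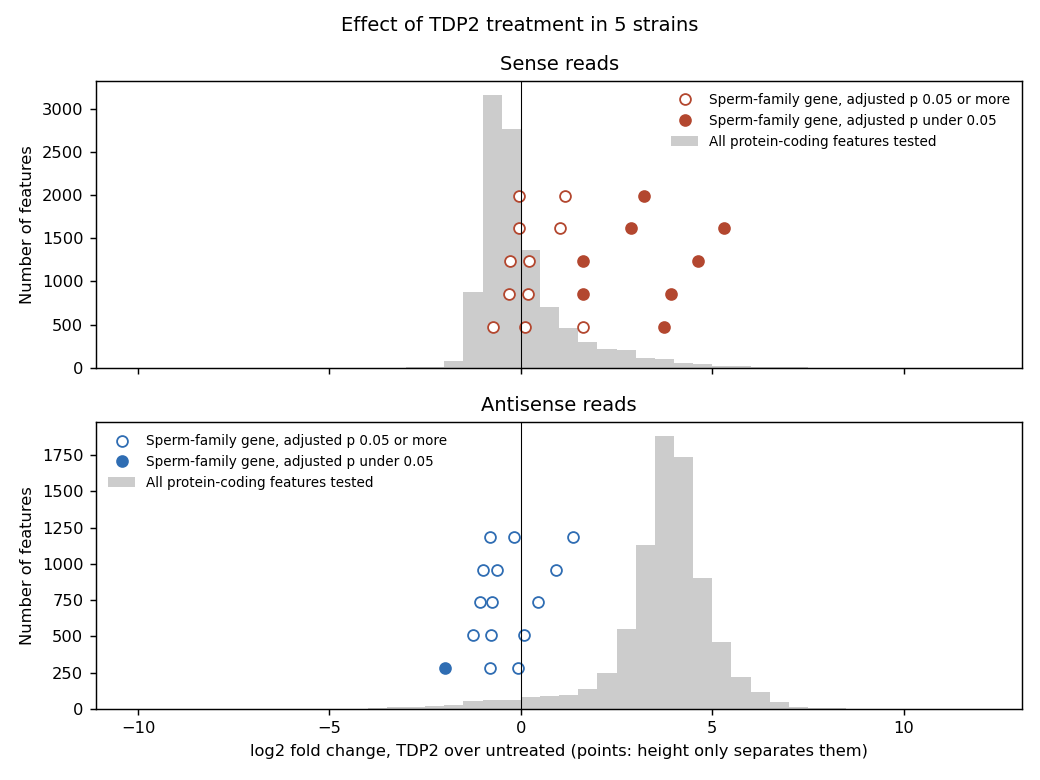
log2 fold change of TDP2 over untreated in 5 strains, fitted with strain as a block, for all tested protein-coding features (grey histogram) and for the tested sperm-family genes (circles, filled where the adjusted p is under 0.05, with height used only to separate them), sense above and antisense below. Sense, 8 of 19 circles are filled and lie right of 0, and antisense, the 15 circles lie between −1.99 and 1.36 while the coding features centre on 3.88.

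The share of reads on the antisense strand needs no scaling between libraries, and it is given here for the summed reads of the 30 genes and of all other coding genes. After TDP2, antisense reads made up 26.6% of the reads of the 30 genes in tofu-6(it20), 12.6% in tofu-6(ust94), 23.3% in tofu-6(ust95), 30.95% in tofu-6(yt2), 13.6% in erh-2, 39.6% in pics-1, 13.1% in prg-1 and 21.6% (19.2 to 24.0) in control. Other coding genes had 42.3%, 22.9%, 54.5% and 67.0% in the it20, ust94, ust95 and yt2 alleles of tofu-6, 33.9% in erh-2, 70.5% in pics-1, 39.3% in prg-1 and 59.1% in control.

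Untreated, the order was turned, and antisense reads made up 47.3% (40.5 to 54.1) in tofu-6(ust94), 44.0% in erh-2, 59.4% in pics-1, 58.6% (55.0 to 62.2) in prg-1, 33.3% in tost-1 and 58.9% (50.5 to 67.0) in control. The same share over all other protein-coding genes was 5.22% in tofu-6(ust94), 3.49% in erh-2, 4.16% in pics-1, 5.95% in prg-1, 3.12% in tost-1 and 4.03% in control. The lower bound for tost-1, from 15 reads, was 11.8%, and each interval lay above the share of other coding genes. Pooled over all untreated libraries, 10687 coding genes had 20 or more reads. Of these, 9.29% had more antisense than sense reads, and 12 of the 23 members with as many reads did. In that pool prg-1 held 737 member reads and the other libraries 15 to 220 each, so the count of 12 leans on prg-1. Pooled likewise with TDP2, 33.0% of 14202 coding genes had more antisense than sense reads. There 9 of the 26 members with 20 or more reads did, so gene by gene the members did not stand below other coding genes. The share over the summed reads was below that of other coding genes in all 8 TDP2 libraries and above it in all 6 untreated ones. Without the most read gene of each family the TDP2 share was 41.3% in control, and 47.1% in tofu-6(it20), which is above the 42.3% of other coding genes there. For msp genes the share was 15.4% in control TDP2 and 22.4% in control untreated, and for the other spermatogenesis genes 71.1% and 25.7%.

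**Figure D5:**
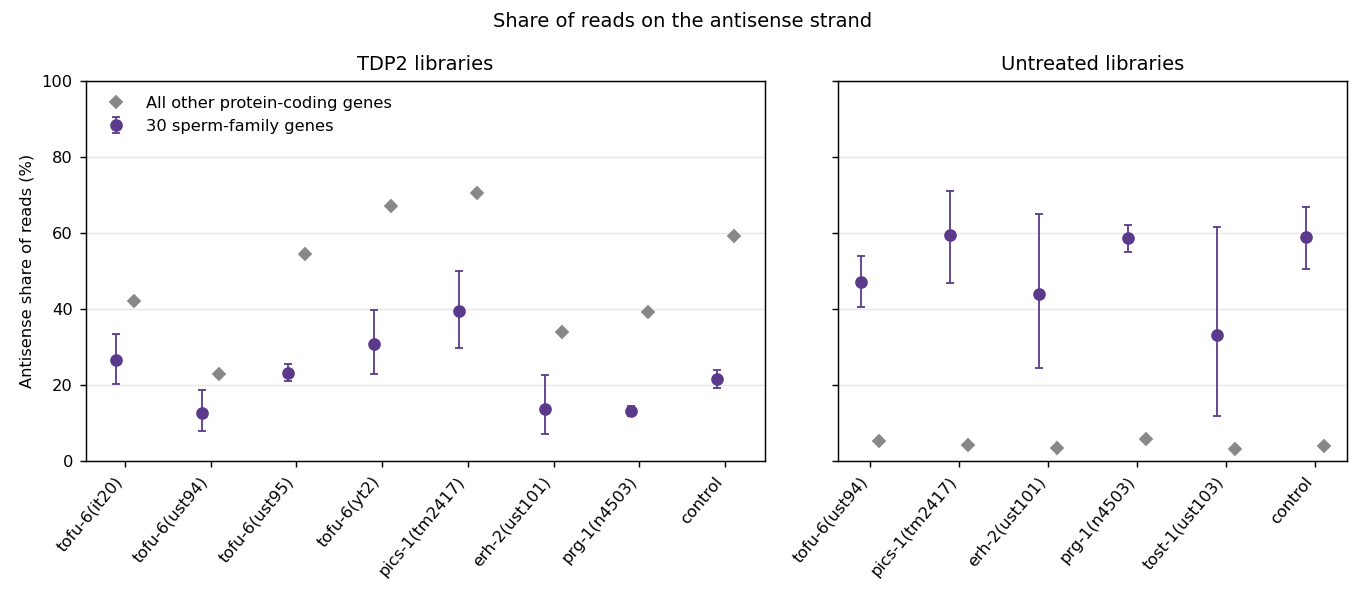
Share of reads on the antisense strand, in percent, for the 30 sperm-family genes (circles, with exact 95% intervals) and for all other protein-coding genes (diamonds), by library. Circles lie between 12.6% and 39.6% and under the diamonds in the 8 TDP2 libraries (left), and between 33.3% and 59.4% and over the diamonds, which stay at 3.12% to 5.95%, in the 6 untreated ones (right).

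In control, the share of some families differed between the preparations and that of others was alike. The nspd genes had 13.0% antisense reads with TDP2 and 79.1% untreated, and the smz genes 5.90% and 80.0%, the last from 5 reads. The ssp genes were mainly antisense in both, 67.3% with TDP2 and 78.0% untreated, and the ssq genes mainly sense, 15.98% and 23.3%, as were the gsp genes, 11.8% and 11.1%. Other strains departed from this, since the ssp share in tofu-6(ust94) was 31.4% with TDP2 and 62.2% untreated, in erh-2 6.38% and 23.1%, and the smz share in pics-1 was 42.9% and 44.4%. Pooled over the libraries of a preparation, nspd-6 had 7.61% antisense with TDP2 and 77.8% untreated, and smz-1 had 7.51% and 69.5%. The nspd genes differed among themselves: nspd-3 was at 84.8% in both and nspd-4 at 73.2% with TDP2 and 65.6% untreated, whereas nspd-1 was mainly sense in both, at 1.81% and 36.7%, and nspd-2 had 49.1% and 40.9%. The ssp genes ran in TDP2 RNA between 86.0% for ssp-16 and 4.07% for ssp-37, and ssp-31 had 35.1% with TDP2 and 95.5% untreated, where 60 of its 64 antisense reads came from prg-1.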

How the data were processed

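Small RNA was measured in 14 libraries. The authors deposited whole-number read counts per transcript and strand for each library, and a table of class sums that was not used. Reads were aligned with Bowtie2 per the submitters' processing notes. No version, genome build or counting tool is stated there. Counts were summed per gene, class and strand, and RPM used all assigned reads; 3 to 27 reads per library had no class.

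The main tests were edgeR 4.0.16 quasi-likelihood tests (TMM scaling). One covered the 8 TDP2 libraries in 5 genotype groups, with 22549 features and 3 residual degrees of freedom that come from the tofu-6 alleles alone; other genotypes are assumed to vary alike. Its median biological coefficient of variation was 0.561. The other covered 10 libraries of 5 strains, TDP2 against untreated, with the strain named in the labels as a block (21837 features, 4 residual degrees of freedom). A feature was kept with at least 10 reads in some library and 30 in all. P-values were two-sided, adjusted over all features by Benjamini-Hochberg, with a threshold of 0.05. The fits were tested on simulated data. Alternatives were DESeq2 1.42.0, other scalings and filters, libraries left out and no block.

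Members and gene lists were chosen with earlier results of these data known. Named were gsp-3, gsp-4, the 3 members of each other family with most reads per strand, all members called and the 4 most read other spermatogenesis genes per strand. Outside this rule, other members (nspd-8, nspd-10, nspd-7, nspd-4 and cluster neighbours) were named after their values were seen. A gene called ssp-28 by RefSeq and spp-28 by the annotation was left out.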

Additional observations from a re-analysis of the deposited data

Results flagged for a closer look

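Among the 4 tofu-6 alleles after TDP2, tofu-6(ust95) lay far above the other 3 in 10 of 12 family sums checked. Its gap to the next allele was 0.947 of the whole range for the sense sum of all 30 genes and 0.908 for the antisense sum, both above Dixon's 95% critical value for 4 samples. The gap was 0.940 sense and 0.875 antisense for nspd, 0.845 and 0.924 for ssp, 0.928 and 0.886 for ssq, 0.846 antisense for smz and 0.901 sense for gsp. Chance marks about 1 in 20 groups, and the 12 sums share libraries and are not independent.

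For tofu-6(ust94) the sense ratio to control was below 1 after TDP2 and above 1 untreated. These ratios were 0.168 with TDP2 and 1.16 untreated for all 30 genes, 0.197 and 1.33 for nspd, 0.384 and 1.69 for ssp, 0.221 and 1.31 for ssq and 0.0308 and 5.40 for smz. The gsp sense ratio was below 1 in both, 0.174 with TDP2 and 0.225 untreated. Per microRNA read the untreated ratio of all 30 genes was 0.345, so the opposite directions hold in RPM and not on that scale. For smz sense reads in pics-1 they were 0.0368 with TDP2 and 3.35 untreated, and for smz antisense reads in tofu-6(ust94) they were 0 and 2.70. The untreated smz values rest on 1 sense and 4 antisense reads in control. The difference between preparations was not tested in any of these, with 1 library of each kind.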

How the results depend on the processing

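Per microRNA read, sense ratios to control after TDP2 were 0.805, 0.680, 2.56 and 0.296 in the it20, ust94, ust95 and yt2 alleles of tofu-6, 0.584 in erh-2, 0.163 in pics-1 and 14.8 in prg-1; untreated they were 0.345 in tofu-6(ust94), 0.0871 in erh-2, 0.121 in pics-1 and 2.35 in prg-1. Antisense they were 1.06, turned from 0.208, 0.356, 2.83 and 0.483 in the tofu-6 alleles, 0.336 in erh-2, 0.390 in pics-1 and 8.11 in prg-1 after TDP2, and 0.216 in tofu-6(ust94), 0.0477 in erh-2, 0.124 in pics-1 and 2.32 in prg-1 untreated. Per read outside structural classes, sense ratios after TDP2 were 0.210 in it20, 0.243 in ust94, 1.43 in ust95, 0.0779 in erh-2 and 4.20 in prg-1, and the antisense ratio of prg-1 was 2.31. Without the most read gene of each family the antisense share was 47.1% in tofu-6(it20), 33.3% in tofu-6(ust95), 24.4% in prg-1 and 41.3% in control after TDP2.

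In erh-2, sense members called lower numbered 0 with DESeq2 size factors, microRNA scaling or no filter, and 0 to 2 with 1 tofu-6 allele left out. In prg-1, sense members called higher numbered 0 to 1 with 1 allele left out. With TDP2 against untreated, sense members called higher numbered 4 with a minimum of 100 reads, 3 with no replicate block and 3 to 8 with 1 strain left out; antisense members called higher numbered 2 with microRNA scaling and 1 with scaling outside structural classes. The antisense member called lower was lost (0) with both those scalings, no filter, 100 reads and no replicate block, and 0 to 1 was called with 1 strain left out. Removing the block changed no other count of calls.

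Reversed log2 values in tofu-6 with microRNA scaling were 0.21 for nspd-1, 0.28 for ssq-1 and 0.12 for gsp-3, where the median of all features moved by 1.75. For TDP2 against untreated, gsp-4 sense was −0.17 with 100 reads, and −0.39 to 0.44 with 1 strain left out, below 0 without the pics-1 (−0.012) or prg-1 pair. Antisense, ssp-16 was 0.88, ssp-34 0.70 and nspd-3 1.62 with microRNA scaling, ssp-16 0.031 and nspd-3 0.61 outside structural classes, and nspd-3 −0.77 to 0.059 with 1 strain left out, above 0 without the tofu-6 pair. The cause of each was not tested. Depth limits all single genes: most had under 10 reads in the low libraries.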

Other observations

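In untreated RNA, spe-39 had 15 antisense reads in prg-1 and 2 in control, and fer-1 had 1 in prg-1 and 0 in control. The 10 genes of the 26G pathway, which include alg-3, alg-4 and the RNA-dependent RNA polymerase gene rrf-3, summed to 112.7, 49.7, 144.7 and 292.7 antisense RPM in the it20, ust94, ust95 and yt2 alleles of tofu-6 after TDP2, 64.3 in erh-2, 448.5 in pics-1 and 140.0 in prg-1, against 230.6 in control.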
